A study of Mus musculus with 11 samples.

Results

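Expression of 9 imprinted genes tied to growth (H19, Igf2, Meg3, Dlk1, Peg3, Cdkn1c, Plagl1, Grb10 and Mest) was followed in stromal vascular cells of mouse perigonadal white adipose tissue (pgWAT), the fat depot beside the gonads. The genes were found by symbol, and all 9 had a row among the 23507 gene rows of the count table. The table held 3261 single cells that had been sorted into 11 plates by FACS and sequenced with Smart-seq2, a full-length protocol that counts reads and not molecules. The cells came from adult Pdgfrb-GFP mice on the C57BL6/J background, in which GFP driven by Pdgfrb sequences marks perivascular cells and adipose stem cells (ASC). All mice carried this reporter, and the groups were set by sex. Each plate held cells of either males or females, never both, so plate and sex cannot be told apart. The mice were 3 male ids (1, 4 and 8) and 4 female ids (2, 3, 5 and 6/7), and id 6/7 stands for a pair of animals that share plates. Gates on GFP, on the endothelial surface protein CD31 and, in mouse 2 only, on DPP4 differed between plates, so the mix of cell classes per mouse was set by the sort.

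Cells were grouped into classes by clustering without the 9 genes and without other imprinted genes. Of the 3261 cells, 2251 were ASC-like, 558 endothelial (EC)-like, 60 pericyte-like, 41 vascular smooth muscle cell (VSMC)-like and 137 macrophage-like, with 19 epithelial-like, 22 lymphatic EC-like and 173 unnamed cells. The summed level of 4 ASC markers (Pdgfra, Col1a1, Dcn, Lum) was 20400 to 33900 CPM (counts scaled to reads sequenced) in the ASC-like cells of the 7 mouse ids and 23.1 to 67.8 CPM in the EC-like cells of the 5 mouse ids with at least 10 such cells. The summed level of 4 EC markers (Pecam1, Cdh5, Kdr, Cldn5) was 6080 to 12600 CPM in EC-like cells and 5.4 to 41.5 CPM in ASC-like cells. The summed level of 10 adipocyte markers was 140 to 516 CPM in ASC-like and 3830 to 7650 CPM in EC-like cells, and its part in the results was not tested. Except where all gene reads are named, levels are CPM of the reads of genes outside ribosomal RNA rows. The reason is that these rows took between 29.9% and 66.9% of the reads of ASC-like cells of a mouse id. Detection is the share of cells with at least 1 read after each cell was thinned to 100000 reads. These include reads of rRNA rows, so the thinned depth outside rRNA differed between mice. Every confidence interval (CI) is an exact 95% binomial interval that covers counting error only. A difference between sums of cells per mouse id was called when the adjusted p (edgeR quasi-likelihood F test, Benjamini-Hochberg over all genes tested) was below 0.05 and the fold above 2.6.

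Imprinted genes are transcribed mainly from one parental copy. Several of them set fetal growth and lie in clusters in which a maternally expressed non-coding RNA and a paternally expressed protein gene are regulated together, such as H19 with Igf2 and Meg3 with Dlk1. Igf2 is a growth factor and Dlk1 a transmembrane protein known for holding back adipocyte differentiation, and both are paternally expressed. Cdkn1c (p57), a cyclin-dependent kinase inhibitor, and Grb10, an adaptor that dampens insulin and IGF receptor signalling, restrain growth and are maternally expressed in most tissues. Plagl1 (Zac1) is a zinc finger transcription factor, Peg3 a zinc finger protein and Mest an enzyme of the alpha/beta hydrolase fold known for its association with fat expansion, and these are paternally expressed. The counts do not separate the parental copies.

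Of the 9 genes, 6 were expressed in ASC-like cells and 3 were close to silent. The mean level per kilobase of annotated exon was 16.7 ± 9.47 CPM (SD, n = 7 mouse ids) for Cdkn1c, 12 ± 5.23 for Mest, 11.2 ± 0.619 for Grb10, 7.58 ± 7.15 for Peg3, 6.30 ± 2.38 for Meg3 and 2.63 ± 1.51 for Plagl1. Igf2, H19 and Dlk1 lay at 0.196 ± 0.300, 0.164 ± 0.231 and 0.0662 ± 0.0786 CPM per kilobase. Neighbours in this order differed by less than the larger of their SDs, except that Plagl1 was below Meg3, and Igf2 below Plagl1, by more than either SD. Thinned to 100000 reads, 9.91% of ASC-like cells had a read of none of the 9 genes, 29.5% had reads of 2, and no cell had reads of more than 7. Igf2 transcripts hold 76.7% of the 31-base stretches of Gm49394, an overlapping gene on the same strand. Cdkn1c transcripts hold 93.7% of those of Gm44732, which overlaps on the other strand. Reads of these pairs cannot be told apart with certainty, and their part in the levels was not tested.

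**Figure D1:**
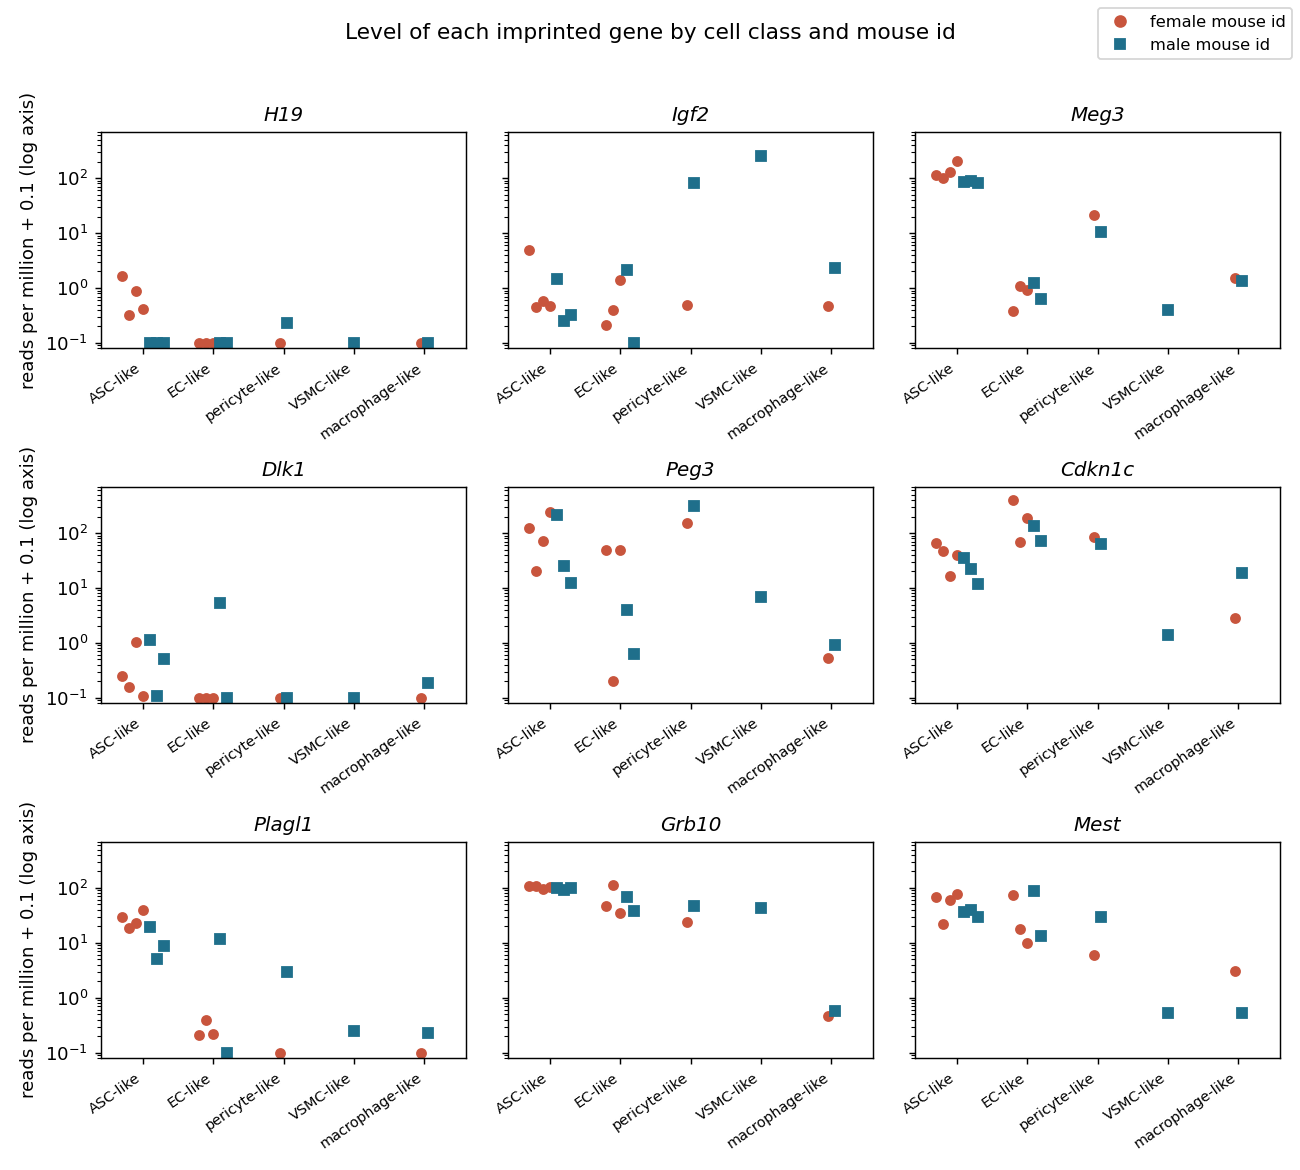
Level of each gene in CPM plus 0.1 (log axis), by cell class. Each point is 1 mouse id with at least 10 cells of the class, circles are female and squares male, and Meg3 sits above 80 in every ASC-like sum and below 2 in every EC-like sum.

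Meg3 and Dlk1 lie in 1 imprinted cluster on chromosome 12, and their levels in the stromal cells were far apart. Meg3, a long non-coding RNA gene at chr12:109541001-109571726 (GRCm38, plus strand), was at 114 CPM in mouse 2, 98.7 in mouse 3, 127 in mouse 5 and 204 in mouse 6/7, and at 84.5, 88.0 and 81.1 CPM in males 1, 4 and 8. A read was found in 56.9% of ASC-like cells (95% CI 54.8 to 59.0%) and in 2.15% of EC-like cells (1.12 to 3.73%), where macrophage-like cells, sorted from the same tissue, had 5.84% (2.55 to 11.2%). Dlk1 (chr12:109452823-109463336, plus strand) was between 0.00594 and 1.02 CPM in the ASC-like cells of the 7 mouse ids, with a read in 0.489% of cells (0.244 to 0.873%). Its 194 reads in ASC-like cells came from 20 cells before thinning, and 10 cells held 93.3% of them. In EC-like cells Dlk1 had 171 reads, of which 99.4% came from 1 cell of mouse 1.

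The windows of 250 bases before the first annotated start of Meg3, of Dlk1 and of Peg3 are shown. Meg3 and Peg3 were among the genes called lower in EC-like cells (below), while Dlk1, the neighbour of Meg3, was close to silent in both classes. Plagl1 was also called lower, and its window, which held none of the motifs marked here, is not printed. Sequences are from RefSeq (GRCm38.p6), where 7 of the 9 genes matched and H19 and Cdkn1c did not. Capitals mark TGACGTCA (the cAMP response element), TATAAA or its complement TTTATA, and GGGGCCCC (a palindrome bound by Plagl1), searched on both strands after the windows had been read. They lie at chr12:109540746-109540995 (plus strand), chr12:109452573-109452822 (plus strand) and chr7:6730420-6730669 (minus strand).
Meg3: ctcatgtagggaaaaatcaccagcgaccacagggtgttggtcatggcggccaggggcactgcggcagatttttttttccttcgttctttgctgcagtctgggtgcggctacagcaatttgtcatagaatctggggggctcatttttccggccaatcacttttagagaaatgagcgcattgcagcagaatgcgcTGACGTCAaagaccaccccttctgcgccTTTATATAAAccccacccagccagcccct
Dlk1: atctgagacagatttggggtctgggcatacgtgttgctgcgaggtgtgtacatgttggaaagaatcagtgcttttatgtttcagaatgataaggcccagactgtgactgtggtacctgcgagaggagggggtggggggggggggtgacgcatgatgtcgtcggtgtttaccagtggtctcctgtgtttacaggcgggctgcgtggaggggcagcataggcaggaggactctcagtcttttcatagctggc
Peg3: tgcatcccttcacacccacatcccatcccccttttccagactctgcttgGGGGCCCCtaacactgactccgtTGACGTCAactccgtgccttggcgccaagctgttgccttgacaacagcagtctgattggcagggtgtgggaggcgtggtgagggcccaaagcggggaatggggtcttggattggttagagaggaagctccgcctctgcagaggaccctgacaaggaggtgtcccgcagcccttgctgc

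The Meg3 window held TGACGTCA 57 bases before the start and TATAAA 25 bases before it, overlapping its own complement. The Peg3 window held TGACGTCA 178 bases and GGGGCCCC 201 bases before the start. The Dlk1 window held none of these motifs, nor did any window of Igf2, Plagl1, Grb10 or Mest. Over all 32841 windows of this length, 1.55% held TGACGTCA, 12.4% TATAAA and 0.889% GGGGCCCC in either direction. A match is a run of letters, and binding was not measured.

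Between EC-like and ASC-like cells of the same mice, 4 of the 6 genes tested were called, beside 22.8% of all 12204 genes tested (8.78% higher in EC-like cells and 14% lower). All 5 mouse ids moved in 1 direction for 40.2% of the genes tested. H19, Igf2 and Dlk1 did not pass the filter of over 600 reads in 2 sums. In mouse 1, 242 ASC-like cells came from the plate gated on GFP and 2 from the plate gated on CD31. In mouse 2 all came from the plates gated on GFP, with and without DPP4, and its other plate was gated on CD31. Class, plate and gate therefore cannot be fully told apart in these mice. Meg3 was at 1.13, 0.285, 1.00, 0.827 and 0.522 CPM in the EC-like cells of mice 1, 2, 5, 6/7 and 8, and no EC-like sum came near an ASC-like sum. The log2 difference was -7.60 (SE 0.501, edgeR adjusted p = 6.8e-05), and it was lower in all 5 mouse ids.

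Plagl1 (chr10:13060504-13131694, plus strand) showed the same direction. It was at 29.5, 18.3, 23.2 and 39.6 CPM in the ASC-like cells of females 2, 3, 5 and 6/7 and at 19.4, 4.96 and 8.82 CPM in males 1, 4 and 8. In EC-like cells it was at 0.112, 0.3, 0.118 and 0 CPM in mice 2, 5, 6/7 and 8 and at 11.5 CPM in mouse 1. A single cell held 87.8% of all Plagl1 reads of EC-like cells, so the level of mouse 1 rested on that cell. The log2 difference was -6.82 (SE 1.54, edgeR adjusted p = 0.014), the direction held in 5 of 5 mouse ids, and the adjusted p was 0.057 without mouse 2 and 0.064 without mouse 6/7.

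Peg3 (chr7:6703892-6730431, minus strand) was also lower in EC-like cells of all 5 mouse ids, with a log2 difference of -4.40 (SE 1.1, edgeR adjusted p = 0.021). Its EC-like levels were split, at 48.4 CPM in mouse 2 and 48.3 CPM in mouse 6/7 against 3.81, 0.1 and 0.522 CPM in mice 1, 5 and 8. The 10 cells with most reads held 96.5% of the 6515 Peg3 reads of EC-like cells, whereas 10 cells held 15.6% of the 102676 reads of ASC-like cells. The adjusted p was 0.078 without mouse 1 and 0.054 without mouse 8.

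Cdkn1c (chr7:143458339-143461050, minus strand) was the 1 gene of the 6 tested that was called higher in EC-like cells. In ASC-like cells it was at 35.4, 67, 16.4, 39 and 11.9 CPM in mice 1, 2, 5, 6/7 and 8, and in EC-like cells of the same mice at 137, 397, 67.8, 191 and 71.9 CPM. The log2 difference was 2.12 (SE 0.213, edgeR adjusted p = 0.00034), with a smaller SE than any other gene of the set in this comparison. The share of cells with a read was 36.6% of EC-like cells (CI 32.6 to 40.7%) and 31.3% of ASC-like cells (29.4 to 33.2%). Before thinning, the median level among cells with a read was 157 CPM in 289 EC-like cells and 43.1 CPM in 1042 ASC-like cells. The unnamed cells held 189 CPM of Cdkn1c, which is 112 CPM of all gene reads, rRNA rows included. They also held markers of several classes. As CPM of all gene reads, the EC marker Cldn5 was at 693, the ASC marker Dcn at 6950 and the adipocyte marker Cfd at 2800. VSMC-like cells had 9 reads in all, which is 1.09 CPM.

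Grb10 and Mest were not called between these classes. Grb10 (chr11:11930508-12038683, minus strand) was at 93.2 to 108 CPM in ASC-like cells and at 68.1, 47.7, 115, 35.3 and 37.4 CPM in EC-like cells of mice 1, 2, 5, 6/7 and 8, with a log2 difference of -1.08 (SE 0.348, edgeR adjusted p = 0.056). The share of cells with a Grb10 read was 58.6% (56.6 to 60.7%) in ASC-like and 19.4% (16.2 to 22.9%) in EC-like cells. Mest (chr6:30723547-30748465, plus strand) was higher in EC-like cells of mice 1 and 2 and lower in those of mice 5, 6/7 and 8, with a log2 difference of -1.09 (edgeR adjusted p = 0.25). Mest shares exon sequence with Copg2, which lies on the opposite strand, so without strand in the counting, on which the sources are silent, their reads cannot be told apart.

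**Figure D2:**
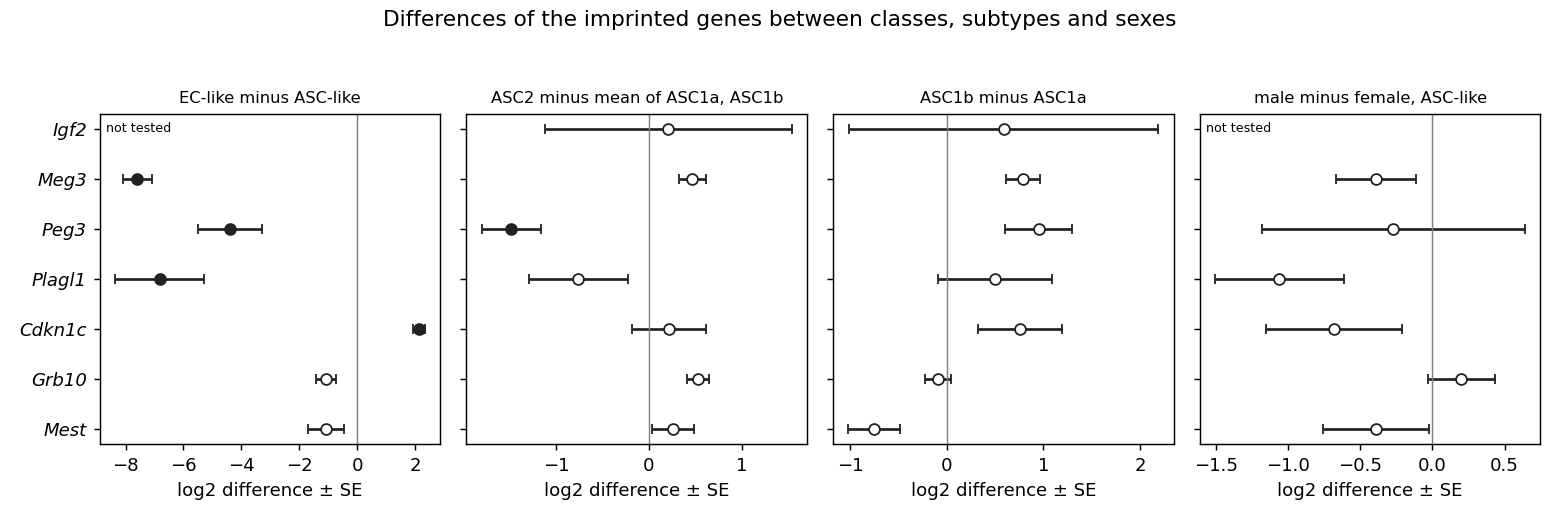
Log2 difference (x axis) with its SE for each gene that passed the filter, in 4 comparisons fitted with edgeR. Filled points were called, and the 5 filled points are Meg3, Peg3, Plagl1 and Cdkn1c between EC-like and ASC-like cells and Peg3 between ASC2 and ASC1.

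Igf2 (chr7:142650766-142666816, minus strand) was low in ASC-like cells and highest in VSMC-like cells. In ASC-like cells it was at 4.91 CPM in mouse 2 and between 0.154 and 1.36 CPM in the other 6 mouse ids, and a read was found in 1.95% of cells (1.42 to 2.62%), beside 1.43% (0.621 to 2.81%) of EC-like and 2.19% (0.454 to 6.27%) of macrophage-like cells. Median depth was between 280200 and 920024 gene reads per cell in the ASC-like and EC-like sums. In VSMC-like cells, 23 of 41 cells had a read (56.1%, CI 39.7 to 71.5%), and the 38 VSMC-like cells of mouse 1 held 1755 reads, or 255 CPM. Pericyte-like cells of mouse 1 were at 82.3 CPM (44 cells) and those of mouse 2 at 0.389 CPM (13 cells). Before thinning, 5 of the 22 lymphatic EC-like cells held all 177 Igf2 reads of that class. Because nearly all VSMC-like cells came from 1 male, no test of this level was possible, and animal, sex and plate cannot be told apart. In the comparison of pooled pericyte-like and VSMC-like cells with ASC-like cells, which rested on mice 1 and 2, Igf2 had a log2 difference of 1.93 (SE 6.07, edgeR adjusted p = 0.92).

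H19 (chr7:142575529-142578143, minus strand), the non-coding partner of Igf2, was detected almost only in ASC-like cells of females. It was at 1.53, 0.217, 0.767 and 0.313 CPM in females 2, 3, 5 and 6/7 and had no read in any of the 768 ASC-like cells of the males. Before thinning, 26 of 1483 female ASC-like cells had a read, and after thinning 11 did (0.742%, CI 0.371 to 1.32%), while 0 of 768 male cells allows a share of up to 0.391% by a limit of 3 counts (exact upper bound 0.479%). EC-like cells held no H19 read (0 of 558, which allows up to 0.538% by the same limit, with an exact upper bound of 0.659%). Of the 597 reads in mouse 2, 595 came from the plate sorted for DPP4 and 2 from the plate without DPP4. Before thinning, 16 and 2 cells of these plates had a read, and no male was sorted on DPP4. In the other females it was 4 cells in mouse 3, 1 in mouse 5 and 3 in mouse 6/7. The levels of the sexes did not overlap. This was so for 16.2% of the genes that passed the main filter, a set that H19 did not enter. With a weak filter of at least 10 reads in 2 sums edgeR gave H19 an adjusted p of 0.065. The 10 cells with most reads held 96.9% of the H19 reads.

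**Figure D3:**
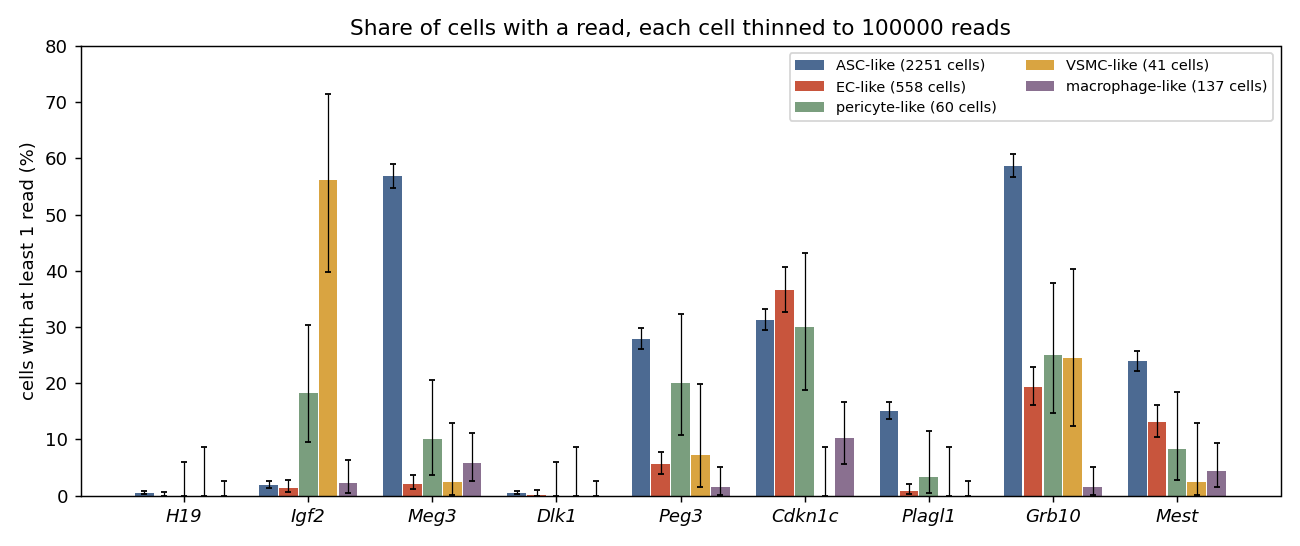
Share of cells with at least 1 read of each gene (y axis, percent) after thinning to 100000 reads, by class. Bars are shares over all cells of a class, error bars are exact 95% binomial intervals, and Meg3 and Grb10 are found in over 56% of ASC-like cells while H19 and Dlk1 are found in under 1%.

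Pericyte-like and VSMC-like cells held different levels of several of the genes, which the cells of 1 or 2 mice did not allow to be tested. Peg3 was at 317 CPM in pericyte-like cells of mouse 1 and 153 CPM in those of mouse 2, and at 6.82 CPM in VSMC-like cells of mouse 1. Of the Peg3 reads of both classes together, 96.1% were in 10 cells. Cdkn1c was at 62.5 and 84.9 CPM in pericyte-like cells of mice 1 and 2 and at 1.31 CPM in VSMC-like cells of mouse 1. On the GFP-gated plates of mouse 2, 379 of 379 and 368 of 369 cells were ASC-like. Nearly all its pericyte-like cells therefore came from the plate gated on CD31 and against GFP. The pericyte-like cells also held EC markers, given here as CPM of all gene reads, rRNA rows included. Cldn5 was at 1540 CPM, Pecam1 at 318, Kdr at 158 and Cdh5 at 145 CPM. The same markers were at 3870, 936, 504 and 322 CPM in EC-like cells and 2.85, 5.25, 2.36 and 1.25 CPM in VSMC-like cells. On this scale Cdkn1c was at 29.8 CPM in pericyte-like, 147 CPM in EC-like and 0.342 CPM in VSMC-like cells. The part of these EC reads in the Cdkn1c level of pericyte-like cells was not tested. Grb10 was at 46.7 CPM in pericyte-like and 43.8 CPM in VSMC-like cells of mouse 1. Of the 7 genes tested between these mural classes together and ASC-like cells, none was called, nor was any of the 9701 genes (0%), at 1 residual degree of freedom. At an unadjusted p below 0.05 the count was 2 of the 7 genes, Meg3 (log2 difference -3.26, edgeR adjusted p = 0.13) and Grb10 (-1.76, adjusted p = 0.30), beside 14.2% of all genes. The likelihood ratio test called Meg3, and DESeq2 called Meg3 and Plagl1. Over all 9701 genes these tests called 1018 and 1387. Macrophage-like cells were below 1 CPM for Grb10 and Peg3 in both mice with such cells.

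ASC-like cells were divided into ASC1a (820 cells), ASC1b (668) and ASC2 (763), which are ranges of a marker score within each mouse and not types, and 18.9% of cells lay near a boundary. The markers were Col15a1, G0s2 and Cxcl14 for ASC1a, Clec11a and Fmo2 for ASC1b, and Dpp4, Cd55 and Arl4d for ASC2. ASC2 denotes the DPP4-positive stem cells and ASC1 the DPP4-negative ones, of which ASC1a carries genes of early adipogenesis. Because the score was scaled within each mouse, every mouse had cells of each subtype, with 86, 124 and 37 ASC2 cells in males 1, 4 and 8. In the paper's clusters nearly all male ASC2 cells came from mouse 1, and the male ASC1a cells only from mice 4 and 8. One of 7 genes tested was called between ASC2 and the mean of ASC1a and ASC1b, beside 3.35% of all 11124 genes tested, and 11.9% of these moved in 1 direction in all 7 mouse ids.

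Peg3 was the gene called, with lower levels in ASC2. It was at 46.1, 76.6, 17.3, 16.0, 14.3, 147 and 2.51 CPM in ASC2 of mice 1, 2, 3, 4, 5, 6/7 and 8, and the mean of ASC1a and ASC1b was 313, 149, 22.1, 28.4, 104, 298 and 14.9 CPM. The levels of different mice overlapped widely between the subtypes, but ASC2 was the lower in 7 of 7 mouse ids. The log2 difference was -1.48 (SE 0.320, edgeR adjusted p = 0.0051) and fell below the fold limit without mouse 1, 5 or 8 (-1.30, -1.29 and -1.31). Peg3 was at the highest mean in ASC1b, 174 ± 169 CPM (SD, n = 7), but ASC1b and ASC1a differed by 0.95 (SE 0.344, edgeR adjusted p = 0.20). The pericyte and VSMC markers, whose cells also held Peg3 in the pericyte class, summed to 10.1 to 351 CPM in ASC2 and to 34.3 to 757 CPM in ASC1a and ASC1b, and their part in the Peg3 difference was not tested.

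Grb10 differed in the other direction. It was at 106, 155, 151, 112, 111, 146 and 145 CPM in ASC2 of mice 1, 2, 3, 4, 5, 6/7 and 8 and at 95.8, 85.9, 85.8, 85.6, 89.7, 80.1 and 85.1 CPM in the mean of ASC1a and ASC1b. These means lay below every ASC2 value, but ASC1a of mouse 1 alone was at 117 CPM, above ASC2 of mice 1, 4 and 5. The share of all genes separated in this way was not counted. The log2 difference of 0.53 (SE 0.118, edgeR adjusted p = 0.0061) was higher in 7 of 7 mouse ids and smaller than the fold limit of a call. The share of cells with a Grb10 read was 68.3% in ASC2, 54% in ASC1b and 53.4% in ASC1a.

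Meg3 was lowest in ASC1a. Its mean was 77.1 ± 34.8 CPM in ASC1a, 124 ± 40.3 in ASC1b and 145 ± 62.8 in ASC2 (SD, n = 7). ASC1b exceeded ASC1a by 0.79 on the log2 scale (SE 0.175, edgeR adjusted p = 0.025), which was below the fold limit, and was the higher in 6 of 7 mouse ids. ASC2 exceeded ASC1 by 0.47 (SE 0.148, edgeR adjusted p = 0.053), with mouse 4 in the other direction. No gene of the set was called between ASC1b and ASC1a, where 0.683% of all genes were and 6.32% moved in 1 direction in all mouse ids. By edgeR 3 of the 7 had an unadjusted p below 0.05, beside 13.4% of all genes. Mest was at -0.75 (SE 0.267, edgeR adjusted p = 0.19). DESeq2 and the likelihood ratio test gave no call either.

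**Figure D4:**
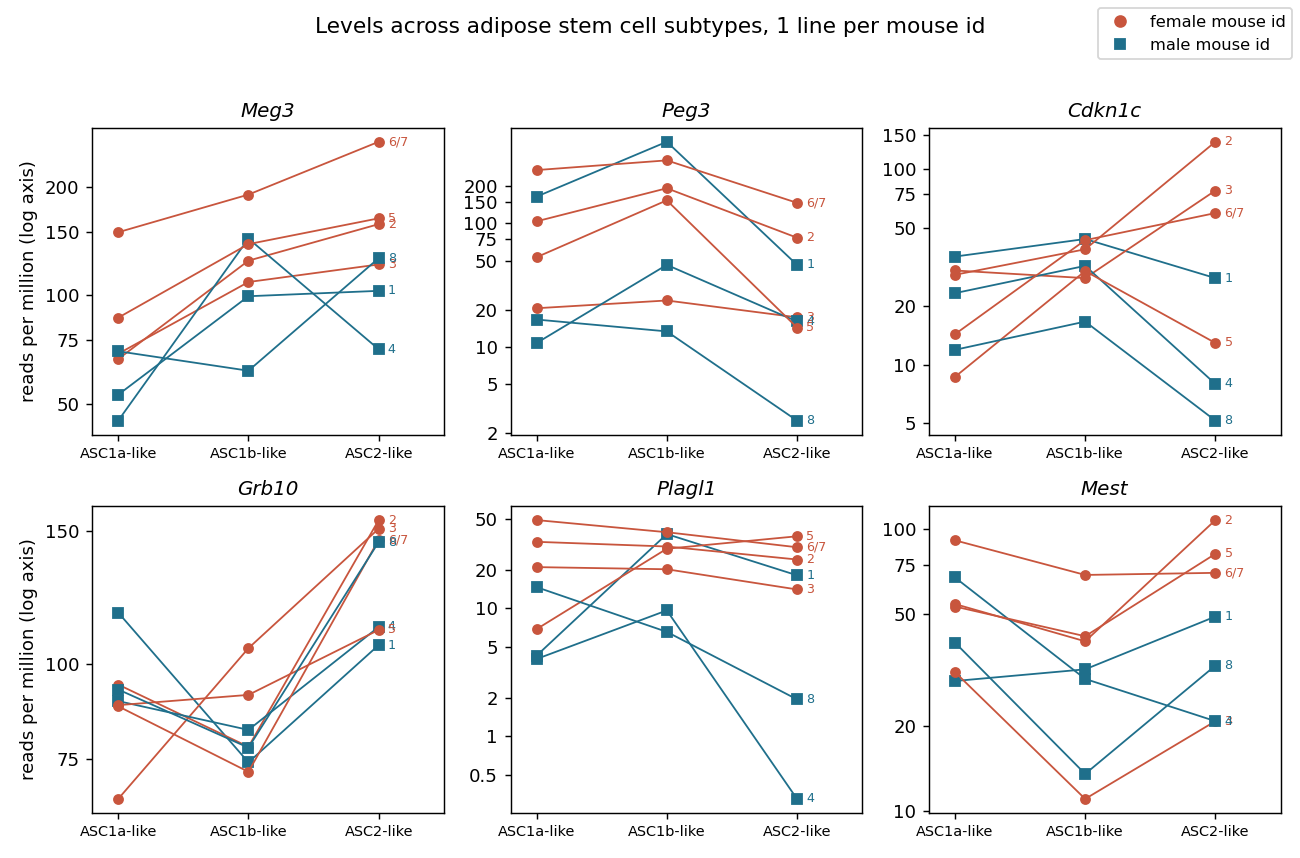
Level in CPM (log axis) of 6 genes in ASC1a, ASC1b and ASC2, with 1 line per mouse id, numbered at the right, circles for females and squares for males. Peg3 is lower in ASC2 than the mean of both ASC1 subtypes in every mouse id, and Cdkn1c in ASC2 runs from 5.17 to 138.

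The sort of mouse 2 gave a separate view of ASC2, since 379 ASC-like cells came from a plate gated on DPP4 and 368 from a plate gated against it. Each gate was 1 plate, so plate and gate cannot be told apart and no test was made. Cdkn1c was at 103 CPM with DPP4 and 36.4 CPM without, Mest at 111 and 29.4 CPM and Grb10 at 141 and 80.9 CPM. The shares of cells with a read were 52.8% (47.6 to 57.9%) and 32.6% (27.8 to 37.7%) for Cdkn1c, 38.3% (33.3 to 43.4%) and 20.4% (16.4 to 24.9%) for Mest and 75.5% (70.8 to 79.7%) and 61.1% (56 to 66.1%) for Grb10. Plagl1 was at 29.9 and 29.2 CPM. Peg3 was at 136 CPM with DPP4 and 112 CPM without, so the lower Peg3 of marker-scored ASC2 was not seen between these plates, though the share of cells with a Peg3 read was 32.2% (27.5 to 37.2%) with and 38.9% (33.9 to 44%) without.

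Between males and females, none of the 6 genes tested in ASC-like cells was called, beside 2.23% of all 11822 genes. The edgeR test gave 1 of the 6, Plagl1, at an unadjusted p below 0.05 (log2 male minus female -1.06, SE 0.445, adjusted p = 0.23), beside 19.4% of all genes, and DESeq2 and the likelihood ratio test called none. Plagl1 was higher in females on average, 27.7 ± 9.21 CPM (SD, n = 4) against 11.1 ± 7.5 CPM (SD, n = 3), but the highest male at 19.4 CPM passed the lowest female at 18.3 CPM. With library totals alone Plagl1 was called (-1.91, adjusted p = 0.029), and that scaling moved the median of all genes to -0.6. Meg3 was at 136 ± 46.7 CPM in females and 84.5 ± 3.47 CPM in males. The CPM levels did not overlap, but with the TMM factors of the fit they did, where 16.2% of all genes did not. The log2 difference was -0.39 (SE 0.280, edgeR adjusted p = 0.47). The difference was 0.20 for Grb10 (adjusted p = 0.66), -0.68 for Cdkn1c (0.45), -0.39 for Mest (0.59) and -0.27 for Peg3 (0.90). In EC-like cells of 2 males and 3 females, none of 4 genes was called, beside 0.0123% of 8107 genes, none had an unadjusted edgeR p below 0.05, beside 7.73%, and DESeq2 and the likelihood ratio test called none.

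Of the 6 genes expressed in ASC-like cells, Peg3 varied most between mice and Grb10 least. In ASC-like cells Peg3 was at 213, 25 and 12 CPM in males 1, 4 and 8 and at 123, 20.1, 70.6 and 243 CPM in females 2, 3, 5 and 6/7, a 20.2-fold range. The share of cells with a Peg3 read ran from 9.32% in mouse 8 to 47.6% in mouse 6/7, and from 9.94% to 42.3% in the same mice when cells were thinned to 30000 reads outside rRNA rows. Grb10 was at 100, 93.2 and 100 CPM in males 1, 4 and 8 and at 108, 108, 96.3 and 104 CPM in the females, a 1.16-fold range. The SD of log2 levels over the 7 mouse ids was 1.69 for Peg3 and 0.08 for Grb10, beside a median of 0.52 over 11818 genes.

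Cdkn1c was also compared by sex in the contrast of ASC2 with ASC1. In ASC2 it was at 138, 77.7, 12.9 and 59.6 CPM in females 2, 3, 5 and 6/7, and at 27.7, 7.96 and 5.17 CPM in males 1, 4 and 8. The mean of ASC1a and ASC1b was 33.8, 29.0, 19.4 and 28.8 CPM in those females and 39.8, 27.6 and 14.3 CPM in those males. ASC2 was the higher in 3 of 4 females and the lower in 3 of 3 males and in female 5. In the paper's clusters few cells of males 4 and 8 were ASC2, so their ASC2 is a range of the score here. The difference between the sexes in this contrast was -2.42 on the log2 scale (SE 0.544), and its edgeR adjusted p of 0.15 over all 11124 genes missed the threshold, where 0.027% of genes were called. The likelihood ratio test (adjusted p = 0.0062) and DESeq2 (0.0019) called it, and so did the edgeR test without mouse 5 (0.047). Over all genes tested these called 61, 80 and 5. Across the alternatives the adjusted p ran from 0.0019 to 0.42. It was the 1 gene of the set with an unadjusted edgeR p below 0.05 in this test, beside 7.84% of all genes.

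Other imprinted genes were taken from a list of 36, of which 4 had no row in the table. In the EC-like against ASC-like comparison 24 were tested. Of these, 2 were called higher and 8 lower in EC-like cells, beside 8.78% and 14% of all genes. Their median log2 difference was -1.33, beside -0.2 over all genes. The non-coding RNAs Rian and Mirg, which follow Meg3 on chromosome 12, were at 15.6 ± 6.93 and 3.81 ± 1.73 CPM in ASC-like cells (SD, n = 7) and 0.277 ± 0.199 and 0.137 ± 0.0494 CPM in EC-like cells (SD, n = 5). Their log2 differences were -6.48 (SE 0.665, edgeR adjusted p = 0.00037) for Rian and -5.29 (SE 0.742, adjusted p = 0.0016) for Mirg. Rtl1, a paternally expressed gene of that cluster whose antisense transcript lies on the other strand, was at 6.41 ± 4.70 CPM in ASC-like cells, with a log2 difference of -7.42 (edgeR adjusted p = 0.015). Dio3, which encodes a thyroid hormone inactivating enzyme at the far end of the cluster, was at 9.46 ± 6.67 CPM in ASC-like cells and had no read in EC-like cells (edgeR adjusted p = 0.013). Dlk1 stood at 0.375 ± 0.444 CPM in cells in which both Rtl1 and Dio3 had reads in all 7 mouse ids. Slc38a4, an amino acid transporter gene, was at 5.79 ± 4.47 CPM in ASC-like and 0.0242 ± 0.0397 CPM in EC-like cells (log2 difference -8.64, edgeR adjusted p = 0.0011), and Rasgrf1 at 20.5 ± 22.4 and 0.412 ± 0.563 CPM (-6.37, adjusted p = 0.008). Ndn, which encodes necdin, was at 239 ± 43.9 CPM in ASC-like and 5.53 ± 11.3 CPM in EC-like cells (log2 difference -8.39, edgeR adjusted p = 0.0024). Nnat, which encodes neuronatin, was higher in EC-like cells, at 1.23 ± 1.07 and 50.6 ± 27.1 CPM (log2 difference 5.76, edgeR adjusted p = 0.0016). None of the imprinted genes on this list was called by sex in ASC-like cells or between ASC subtypes. At an unadjusted edgeR p below 0.05 there were 4 of 23 by sex, beside 19.4% of all genes. For ASC2 against ASC1 there were 5 of 21, beside 21.4%, and for ASC1b against ASC1a 3 of 21, beside 13.4%.

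Genes around the growth regulators were read from 3 further lists. Beside the counts that follow, 8.78% of all genes were called higher and 14% lower in EC-like cells. Of 12 genes of IGF and insulin receptor signalling, 10 were tested and 6 were called lower in EC-like cells, among them Igf1 at 226 ± 141 CPM in ASC-like and 18.0 ± 16.4 CPM in EC-like cells and Irs2, an insulin receptor substrate, at 67.5 ± 24.3 and 1.72 ± 1.08 CPM (log2 difference -5.62, edgeR adjusted p = 0.00026). Irs1, Akt2, Igf2bp2 and Pik3r1 were the others. Igf2r, the maternally expressed receptor that clears Igf2, was at 71.5 ± 21.9 and 52.1 ± 22.3 CPM and was not called (-0.63, adjusted p = 0.17). Of 17 cyclin-dependent kinase inhibitors and cycle genes, 12 were tested and 3 were called higher in EC-like cells, namely Cdkn1a (74.6 ± 20.9 against 450 ± 296 CPM, log2 difference 1.99, edgeR adjusted p = 0.034), Ccnd1 and Cdk2, so the inhibitors Cdkn1a and Cdkn1c were both higher. Cdkn1b, the third member of that inhibitor family, was at 18.4 ± 5.22 and 20.1 ± 9.72 CPM. The other inhibitors of the list were at 5.35 ± 1.77 and 1.12 ± 1.46 CPM (Cdkn2b), 15.4 ± 6.26 and 32.2 ± 15.7 (Cdkn2c) and 20.7 ± 6.78 and 38.1 ± 21 (Cdkn2d). None of these was called. Of 11 genes of preadipocytes and adipogenesis, all were tested, 2 were called higher (Fabp4 and Pparg) and 4 lower (Ebf2, Sox9, Cebpb and Cebpd) in EC-like cells. Between ASC2 and ASC1, Igf2bp2 (-2.28, edgeR adjusted p = 0.022) and Fabp4 (-1.79, adjusted p = 0.0027) were called lower in ASC2, as Peg3 was. They were 1 of 10 and 1 of 11 tested on their lists, beside 3.35% of all genes. Pparg (-2.30, edgeR adjusted p = 0.0022) and Fabp4 (-1.88, adjusted p = 0.017) were called lower in ASC1b than in ASC1a, 2 of 11 tested, beside 0.683% of all genes. No other gene of the 3 lists was called in either comparison. The subtypes were set by a marker score, whose part in these differences was not tested. By sex, none of the genes on these 3 lists was called in ASC-like cells, beside 2.23% of all genes. At an unadjusted edgeR p below 0.05 there were 2 of 10, 3 of 11 and 4 of 11 tested, beside 19.4% of all genes.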

How the data were processed

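Stromal vascular cells of pgWAT were measured by Smart-seq2, and, per the labels and the study's methods, the authors aligned reads with STAR to mm10 with ERCC sequences, quantified them with Salmon and deposited the counts as whole numbers for each gene in each cell. Tool versions and how the estimates became whole are not given in the sources used here. Total reads per cell ran from 149931 to 3548334. Cells were clustered in Seurat 5.3.0 on 2991 variable genes (9 imprinted genes among the top 3000 were left out) and named from markers. No doublet caller was run. The study describes a step that removed cells carrying RNA of other classes, followed by a second clustering. Its final clusters hold as many cells as the deposited table (3261), though the order of removal and deposit is not stated.

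Counts were summed per mouse id and class (at least 10 cells) and tested with edgeR 4.0.16 (quasi-likelihood F test, TMM, two-sided) on genes with over 600 reads in at least 2 sums. Comparisons of classes and subtypes had the mouse id as a block, since the sums came from the same animal. The mouse id is the replicate. Mice 3, 4, 5 and 8 had 1 plate each, while mice 1, 2 and 6/7 had several plates with different gates. ASC-like and EC-like sums of the latter came in part from different plates. The genes named are all 9 members, the called genes of each list (at most 6 per list and comparison) and, per gene, the 2 genes of most similar level. Mirg, Nnat, Igf2r, Cdkn1b, Cdkn2b, Cdkn2c and Cdkn2d were named after their values were seen. The members and lists were chosen with earlier results of these data known. Coordinates are GENCODE vM21 (GRCm38). The tests were tried on simulated counts with known changes. Alternatives were RLE factors, library totals, a weak filter of at least 10 reads, the likelihood ratio test, DESeq2 1.42.0, classes from the markers of each cell, no block, subtype cells away from a boundary, and leaving out each mouse id. Other thinning, scaling to all gene reads and adding Gm27000 to Meg3 were chosen after seeing the data.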

Additional observations from a re-analysis of the deposited data

Results flagged for a closer look

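Of 36 groups of 4 female levels, 6 had 1 mouse id apart from the rest by Dixon's criterion, and all 6 were of genes close to silent. The criterion's rate of about 1 of 20 groups by chance holds for independent normal values, which such levels are not. Groups of ASC-like cells and of their subtypes also share cells, so the count of 6 cannot be set against that rate. Igf2 was at 4.91 CPM in the ASC-like cells of mouse 2 against 0.358 to 0.479 CPM in the other 3 females, and at 8.46 CPM in ASC2 of mouse 2 against 0 to 0.789. H19 was at 3.42 CPM in ASC2 of mouse 2 against 0 to 0.562. Dlk1 was at 0.959 CPM in the ASC-like cells and at 2.97 CPM in ASC2 of mouse 5, and at 0.197 CPM in ASC1b of mouse 2, where the other 3 females had no read. Mouse 2 had the most ASC-like cells (747) and was the 1 mouse id with a DPP4 gate.

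The Dlk1 level in ASC2 against ASC1 differed by -1.24 between the sexes (log2 of CPM plus 1, males minus females), with signs opposite by sex. This difference was not tested and gives no direction for every mouse id, because mouse 4 (male) and mouse 6/7 (female) each had 1 Dlk1 read in ASC-like cells, under the floor of 3 counts. It rests on 194 reads in 20 cells.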

How the results depend on the processing

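Of the 4 genes called between EC-like and ASC-like cells, Meg3 and Cdkn1c were called under all 12 alternatives. Without the mouse block 2 were called, since Peg3 (-2.88, adjusted p = 0.11) and Plagl1 (-3.41, adjusted p = 0.086) were lost, and leaving out 1 mouse id gave 3 to 4 calls. The Peg3 call between ASC2 and ASC1 was lost without the block (0 calls, -1.55, adjusted p = 0.42), and leaving out mouse ids gave 0 to 1. The block changed no other call of the 9 genes. For mural cells the likelihood ratio test gave 1 call and DESeq2 2, and leaving out a mouse id could not be fitted with 1 mouse left, while classes from the markers of each cell gave no value. The sex comparison in ASC-like cells gave 1 call with library totals alone and 0 on leaving out each mouse id, and that of EC-like cells gave 0 throughout. The sex by subtype test gave 1 call with the likelihood ratio test and with DESeq2, and 0 to 1 on leaving out mouse ids.

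Signs turned only for differences that were not called. ASC1b minus ASC1a of Grb10 was 0.08 without cells near a boundary. ASC2 minus ASC1 of Igf2 was -0.04 with the likelihood ratio test and -0.09 with DESeq2. Mural minus ASC-like of Cdkn1c was -0.05 with the weak filter. With library totals alone the sex difference was -0.47 for Grb10 in ASC-like and -0.13 for Mest in EC-like cells. The sex by subtype difference of Igf2 was -0.19 (likelihood ratio test), -0.34 (DESeq2) and -0.61 (no cells near a boundary). On leaving out 1 mouse id, ASC1b minus ASC1a ran from -0.45 to 1.75 for Igf2 and from -0.19 to 0 for Grb10, ASC2 minus ASC1 from -0.84 to 0.72 for Igf2 and from -0.18 to 0.50 for Cdkn1c, the sex difference from -2.29 to 0.35 for Peg3 in ASC-like and from -0.50 to 0.55 for Grb10 in EC-like cells, and the sex by subtype difference from -4.20 to 1.54 for Igf2 and from -0.53 to 0.01 for Meg3. The cause was not tested.

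Over all genes, 264 were called by sex in ASC-like cells, 174 with the weak filter, 551 with the likelihood ratio test, 594 with DESeq2 and 92 to 345 without 1 mouse id, and 69.3% were higher in males, or 28% with library totals alone. In EC-like cells the count was 1, against 3 with library totals alone or marker classes, 61, 107 and 645 (likelihood ratio test, DESeq2, without mouse 1). It was 0 for mural cells against 44, 1018 and 1387 (library totals, likelihood ratio test, DESeq2), 373 for ASC2 against 194 without the block, 76 for ASC1b against 8 without it, 152 and 191, and 3 for sex by subtype against 61 and 80. The share of ASC-like cells with a read rose without thinning, for example from 27.9% to 53.3% for Peg3, and was 21.8% at 5 reads.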

Other observations

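Grb10 had the second smallest spread between mouse ids among 11818 genes in ASC-like cells when levels were scaled to reads outside rRNA rows (SD of log2 0.08, with 1 gene smaller). With TMM factors its SD was 0.19, with 412 genes (3.49%) smaller, and with all gene reads 0.44, with 12.8% of genes smaller, so its rank depends on the scaling. The share of ASC-like cells with a Grb10 read was less even, from 38.9% in mouse 1 to 68.4% in mouse 2, whose rRNA rows took 66.9% and 34.4% of reads. With cells thinned to 30000 reads outside rRNA rows, the shares were 36.4% and 62.1%. Peg3 was at the other end on each scale, with 98.7%, 98.9% and 99.1% of genes below its SD. Plagl1 was above 90.4% and Cdkn1c above 85.7% of genes on the first scale.

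Across the 21 sums of mouse id and ASC subtype, the gene most like Meg3 was Gm27000 (Pearson r = 0.93), a non-coding RNA gene on chromosome X. Of its 812 stretches of 31 bases, 781 (96.2%) also occur in Meg3 transcripts, so reads cannot be told apart between them with certainty. Gm27000 held 8.36% to 11.6% of the Meg3 level in ASC-like cells and 0 to 3.57% in EC-like cells. The next was Wls (r = 0.78), which encodes a carrier of Wnt proteins. Peg3 was most like Fkbp7 (r = 0.92) and Ubr2 (0.84), Cdkn1c like Myoc (0.77) and Mill2 (0.73), Plagl1 like Klhl7 (0.81) and Ddx52 (0.78), Grb10 like Steap3 (0.80) and Gltp (0.79), and Mest like Zfp965 (0.81) and Nmi (0.79). The sums share mice, plates and depth, and these are the highest values among 11120 genes.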
